A study of Mus musculus with 46 samples.

Results

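Hemoglobin RNA and the RNA of 4 other red cell genes were followed in liver, kidney and cerebellum of the same mice, as a measure of how much red cell RNA each organ held. The 8 genes were Hba-a1, Hba-a2, Hbb-bs and Hbb-bt (the adult globins), Alas2, Bpgm, Slc4a1 and Fam46c, out of 53465 genes in the count table. They were chosen by name with earlier results of these data known, and the libraries were selected on the level of tissue genes: 5 libraries holding RNA of another organ (liver of animal 2, kidneys of animals 2, 11 and 12, cerebellum of animal 7) were left out. The organ and genotype differences of the 8 genes are therefore given as descriptions. No p-value is given for them, and where edgeR's calls of these genes are counted, nothing is read from the counts.

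The mice were C57BL/6 animals at postnatal day 23. All 16 carried the P195A allele, 8 of them labelled P195A_p150neg (p150-negative below) and 8 labelled P195A_p150pos (p150-positive); the series' design text writes P195A/p150- and P195A/p150+, as the plots do. P195A alters the Z-RNA binding domain of ADAR1, the RNA editing enzyme encoded by Adar, and p150 is its long, interferon-inducible form. Both groups share the P195A allele, so the comparison is of p150 status among carriers of it. No group without P195A was analysed here. Zygosity, sex, litter and whether the organs were perfused are not given in the sources used here, and blood left in an organ contributes to its red cell RNA.

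Hemoglobin is assembled from alpha chains (Hba-a1, Hba-a2) and beta chains (Hbb-bs, Hbb-bt), and each chain holds a heme. Alas2 encodes the erythroid form of the first enzyme of heme synthesis. Bpgm makes 2,3-bisphosphoglycerate, which lowers the oxygen affinity of hemoglobin. Slc4a1 encodes band 3, the anion exchanger of the red cell membrane, and a shorter form of it is made by intercalated cells of the kidney collecting duct. Fam46c (also named Tent5c) encodes a poly(A) polymerase that extends mRNA tails and is expressed late in erythroid maturation. Mature red cells have no nucleus and keep little RNA. Reticulocytes, the young red cells that have just left the marrow, still hold globin and Alas2 mRNA, so in an organ sampled whole these transcripts mostly come from blood in its vessels. In such bulk RNA, fewer red cells and less RNA per red cell cannot be told apart.

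The alpha genes are a nearly identical pair, and so are the beta genes, which limits how far a read can be assigned to 1 copy. Hba-a1 (chr11:32283511-32284465, plus strand, GRCm38, GENCODE M21) and Hba-a2 (chr11:32296489-32297298, plus strand) have coding sequences of 426 bases that differ at 1 base, C381T, counted from the first base of the start codon with Hba-a1 first. Hbb-bs (chr7:103826534-103828096, minus strand) and Hbb-bt (chr7:103812524-103813996, minus strand) have coding sequences of 441 bases that also differ at 1 base, C417T, with Hbb-bs first. Neither difference changes the encoded residue. The coding stretches around these bases are shown because the split of counts within each pair rests on them and on the untranslated ends, with the differing base in capitals.
Hba-a1 coding bases 361 to 401: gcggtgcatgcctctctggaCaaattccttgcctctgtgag
Hba-a2 coding bases 361 to 401: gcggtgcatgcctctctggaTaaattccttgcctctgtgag
Hbb-bs coding bases 397 to 437: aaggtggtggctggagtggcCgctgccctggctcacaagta
Hbb-bt coding bases 397 to 437: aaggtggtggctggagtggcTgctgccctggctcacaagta
Of the 650 windows of 50 bases in the Hba-a1 mRNA, 67.5% occur unchanged in Hba-a2, and of the 579 in Hbb-bs, 65.8% occur in Hbb-bt. How reads that fit both copies were counted is not stated, so single copies are uncertain, and the alpha sum, the beta sum and the sum of all 4 globins are used wherever possible. That sum still lacks any read dropped for fitting both copies.

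RefSeq promoters were found for 7 of the 8 genes (GRCm38.p6, the 250 bases before each RefSeq start, which can lie inside the GENCODE span above). Those of an alpha globin, a beta globin and Alas2 are printed as examples of genes that were lower together, and that of Bpgm because it lacks the GATAA and CACCC letters of the others. Capitals mark GATAA (bound by GATA factors), CACCC (bound by KLF factors), CCAAT and TATAA, each read on both strands.
Hba-a1, chr11:32283422-32283671, plus strand: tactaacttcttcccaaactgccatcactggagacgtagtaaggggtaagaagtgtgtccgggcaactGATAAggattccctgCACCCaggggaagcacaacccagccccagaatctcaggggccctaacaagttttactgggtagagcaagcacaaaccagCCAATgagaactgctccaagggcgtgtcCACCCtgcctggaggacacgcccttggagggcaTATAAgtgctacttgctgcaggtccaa
Hbb-bs, chr7:103827929-103828178, minus strand: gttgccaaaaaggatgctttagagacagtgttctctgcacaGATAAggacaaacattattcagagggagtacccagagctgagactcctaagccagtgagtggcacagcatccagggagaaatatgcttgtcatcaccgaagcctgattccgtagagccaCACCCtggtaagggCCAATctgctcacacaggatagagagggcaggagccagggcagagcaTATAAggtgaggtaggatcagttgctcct
Alas2, chrX:150547167-150547416, plus strand: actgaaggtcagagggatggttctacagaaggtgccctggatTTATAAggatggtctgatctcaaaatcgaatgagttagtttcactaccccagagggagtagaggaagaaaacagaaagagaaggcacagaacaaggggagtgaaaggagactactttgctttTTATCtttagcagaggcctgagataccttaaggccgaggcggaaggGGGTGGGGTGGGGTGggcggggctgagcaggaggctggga
Bpgm, chr6:34476106-34476355, plus strand: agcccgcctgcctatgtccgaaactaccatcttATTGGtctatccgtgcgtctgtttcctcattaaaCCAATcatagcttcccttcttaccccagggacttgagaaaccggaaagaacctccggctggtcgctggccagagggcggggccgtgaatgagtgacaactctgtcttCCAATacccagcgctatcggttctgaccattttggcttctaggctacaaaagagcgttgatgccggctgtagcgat
GATAA stood in these windows of the 4 globins and Alas2, at 1 match each, and in 22.6% of all 32851 promoters of the table. CACCC stood in the same 5 windows, with 1 to 3 matches, and in 52% of all promoters. The TATAA match of Hba-a1 began 27 bases before the start, that of Hba-a2 30 bases, that of Hbb-bs 29 bases and that of Hbb-bt 28 bases. The Bpgm and Fam46c windows held CCAAT matches, 3 and 1, and none of the other letters. A match is a run of letters, not a shown site.

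The 41 libraries used were 14 livers (7 of each genotype), 12 kidneys (5 p150-negative, 7 p150-positive) and 15 cerebella (8 and 7), with 0.27 to 6.24 M counts each (M, 1000000 counts; median 2.95 M). In each, the identity genes of the labelled organ summed to at least 59.8% of the median of that label, against at most 0.825% in the 5 libraries left out. Adar RNA, summed over its isoforms so that p150 is not resolved, ran from 1.88 to 15.8 counts per 1000000 (CPM) in p150-negative and 5.4 to 19.8 CPM in p150-positive livers. It ran from 0 to 24.9 and 9.41 to 43.9 CPM in kidneys, and from 17.6 to 87.8 and 14.4 to 39 CPM in cerebella. Its log2 fold changes, p150-negative over p150-positive, were -0.59 ± 0.34 (SE) for liver, -0.31 ± 0.50 for kidney and 0.43 ± 0.31 for cerebellum (edgeR quasi-likelihood test, adjusted p 0.318, 0.974 and 0.723); leaving out kidney animal 5 turned the kidney value to 0.05.

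Some libraries stand apart. The livers of animal 16 (p150-negative, 0.53 M counts) and animal 13 (p150-positive) had the highest globin levels of their groups and, of animal 13, the lowest Alas2. Counts in other genes with under 1000 exon bases made up 7.65% and 7.93% of these libraries, against 3.5% to 4.84% in the other p150-negative and 3.12% to 4.71% in the other p150-positive livers. The same share was 9.01% in the kidney library of animal 3 (p150-negative, 0.27 M counts) and 7.64% in that of animal 5 (p150-positive), the highest of their groups, whose next values were 4.5% and 5.35%. In cerebellum it was highest in animal 11 (p150-negative, 0.94 M counts), at 3.93%. P150-negative cerebella 16 (3.47%) and 8 (2.76%) followed, against at most 2.46% in p150-positive cerebella. Animals 11, 16 and 8 also had the highest globin sums of the p150-negative cerebella (2270, 1946 and 1678 CPM). Globin mRNAs are short (0.667 to 0.812 kb of exon, against 2.403 for Alas2), and the part of this short-gene share in the globin values was not tested.

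The summed adult globins were lower in p150-negative than in p150-positive kidneys and cerebella, and the livers overlapped. In kidney the 5 p150-negative animals had 834, 3172, 2366, 2155 and 2974 CPM (animals 1, 3, 8, 9 and 16). The 7 p150-positive kidneys ran from 3377 to 9743 CPM with a median of 4741. Every p150-negative kidney thus lay below every p150-positive one.

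In cerebellum the 8 p150-negative libraries ran from 630 to 2270 CPM (median 838) and the 7 p150-positive ones from 2148 to 4251 CPM (median 2213). Only animal 11, one of the shallow libraries with a high short-gene share, reached into the p150-positive range. In liver the p150-negative libraries ran from 1389 to 5023 CPM (median 1590) and the p150-positive ones from 1559 to 5196 CPM (median 2177), the maximum of each group being animals 16 and 13. Between genotypes the log2 levels differed by -0.40 in liver (SD within groups 0.61), by -1.35 in kidney (0.67) and by -1.25 in cerebellum (0.58). The liver difference was thus smaller than the spread between animals, and the other differences were larger. Without liver animals 13 and 16, chosen after seeing the data, the liver difference was -0.46 with an SD of 0.27.

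**Figure D1:**
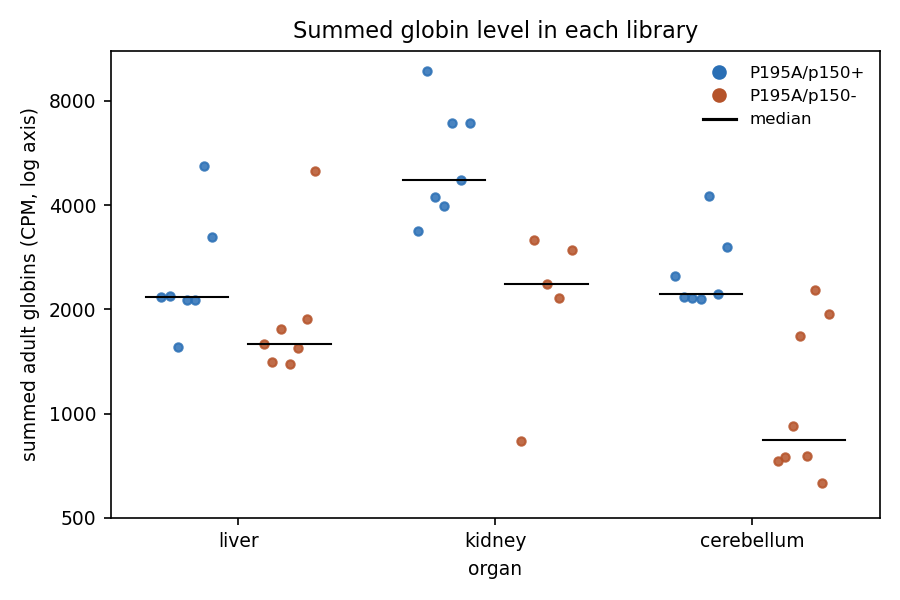
Summed CPM of Hba-a1, Hba-a2, Hbb-bs and Hbb-bt (log axis) in each library by organ and genotype; points are animals and black lines group medians. In kidney the p150-negative points (834 to 3172 CPM) all lie under the p150-positive ones (3377 to 9743 CPM), in cerebellum only 1 reaches 2148 CPM, and the livers overlap.

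Ordered by mean, the globin sum was highest in p150-positive kidney, at 5699 ± 2263 CPM (SD, n = 7), or 0.57% of all counts. P150-positive liver (2658 ± 1224 CPM), p150-positive cerebellum (2638 ± 778 CPM, n = 7), p150-negative kidney (2300 ± 921 CPM, n = 5) and p150-negative liver (2086 ± 1307 CPM, n = 7) followed, and each of these differed from the next by less than the larger SD. P150-negative cerebellum was lowest, at 1209 ± 650 CPM (n = 8). The kidney mean was thus the highest in p150-positive mice, while in p150-negative mice the kidney and liver means differed by less than their SDs.

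Hba-a1 and Hba-a2 encode the same alpha chain. Hba-a1 in kidney stood at 147, 427, 442, 440 and 491 CPM in p150-negative animals 1, 3, 8, 9 and 16, and at 569 to 1569 CPM (median 773) in p150-positive ones, with no overlap. In cerebellum it ran from 108 to 328 CPM (median 171) against 353 to 703 CPM (median 363), again with no overlap. In liver 260 to 742 CPM (median 302) stood against 296 to 795 CPM (median 422), and 3 of 7 p150-negative animals lay below every p150-positive one. The log2 fold changes were -0.26 ± 0.29 in liver, -1.38 ± 0.30 in kidney and -1.20 ± 0.24 in cerebellum. Hba-a2 held 14.7% to 28.6% of the alpha counts of a library. Its log2 fold changes were -0.55 ± 0.34, -1.56 ± 0.42 and -0.97 ± 0.35 in the same order of organs, with overlap of the groups in all 3.

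Hbb-bs and Hbb-bt encode the same beta chain. Hbb-bs was the most abundant of the 8 genes, also per kilobase of exon, where its mean in p150-positive kidney was 4751 CPM per kb against 1140 for Hba-a1, 1249 for Hbb-bt and 369 for Hba-a2. Its kidney levels were 556, 2110, 1493, 1304 and 1972 CPM in p150-negative animals 1, 3, 8, 9 and 16 and 2248 to 5869 CPM (median 3090) in p150-positive ones. The groups did not overlap, with animal 3 nearest to the p150-positive range.

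In cerebellum Hbb-bs ran from 397 to 1520 CPM (median 563) against 1413 to 2810 CPM (median 1443), and 7 of 8 p150-negative animals lay below every p150-positive one. In liver 859 to 3413 CPM (median 1031) stood against 1010 to 3501 CPM (median 1448). The log2 fold changes of Hbb-bs were -0.31 ± 0.37 in liver, -1.44 ± 0.30 in kidney and -1.18 ± 0.27 in cerebellum, and those of Hbb-bt -0.11 ± 0.35, -1.57 ± 0.37 and -1.19 ± 0.30. The liver value of Hbb-bt turned to 0.18 without animal 13, so its direction there rests on that library.

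Alas2, the erythroid heme synthesis enzyme, had the lowest kidney log2 fold change of the 8 genes in the fit that included animal 3. The kidneys of p150-negative animals 1, 3, 8, 9 and 16 had 48.3, 0, 209, 194.7 and 198.4 CPM, and p150-positive kidneys 329 to 643 CPM (median 516). The groups did not overlap. The 0 comes from the shallow library of animal 3, where 3 counts would be 11.1 CPM. That floor is far under the 194.7 to 209 CPM of animals 8, 9 and 16. The same library held 854 globin counts and a short-gene share of 9.01%, and why it had no Alas2 count was not tested.

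In cerebellum Alas2 ran from 41.4 to 109 CPM (median 59.4) against 131 to 432 CPM (median 183), again without overlap. In liver it ran from 77.3 to 139 CPM (median 105) against 31.3 to 221 CPM (median 191). All p150-negative livers were below the p150-positive median, and the overlap came from animals 7 (129 CPM) and 13 (31.3 CPM). The log2 fold changes were -0.63 ± 0.28 in liver, -1.93 ± 0.52 in kidney and -1.73 ± 0.26 in cerebellum, the last a level 3.32-fold lower. Without kidney animal 3 the kidney value was -1.66. Without liver animals 13 and 16 the liver value was -0.79 ± 0.18.

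Bpgm, the 2,3-bisphosphoglycerate enzyme, was lower in p150-negative animals in every organ. In kidney it stood at 88.9, 18.6, 103, 106 and 120 CPM in animals 1, 3, 8, 9 and 16 against 160 to 347 CPM (median 294), with no overlap. In liver it ran from 31.3 to 54.5 CPM (median 40.6) against 35.1 to 87.4 CPM (median 72.7), and only p150-positive animal 13 overlapped. In cerebellum 93.1 to 181 CPM (median 122) stood against 156 to 285 CPM (median 201), and 7 of 8 p150-negative animals lay below every p150-positive one. The log2 fold changes were -0.66 ± 0.19, -1.61 ± 0.33 and -0.75 ± 0.15 in liver, kidney and cerebellum.

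Bpgm did not keep to the globins between organs. Per 1000 globin counts of the same p150-positive library it gave 31 ± 12.4 counts in liver, 49.1 ± 15.1 in kidney and 80.7 ± 15.6 in cerebellum (SD, n = 7 each). In p150-negative cerebella this was 124 ± 45.6 (n = 8). The Bpgm difference between genotypes in cerebellum was thus smaller than that of the globins beside it.

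Fam46c, the poly(A) polymerase gene, was low everywhere, and its genotypes did not overlap in kidney but did in cerebellum and liver. Kidneys of p150-negative animals 1, 3, 8, 9 and 16 had 24.3, 0, 30.5, 22.3 and 22.1 CPM and p150-positive kidneys 32 to 74.4 CPM (median 61). In cerebellum it ran from 0 to 8.96 CPM (median 5.78) against 6.23 to 35.6 CPM (median 19.6), 4 of 8 p150-negative animals lying below every p150-positive one and all 8 below the p150-positive median. In liver 11.7 to 23.7 CPM (median 15.8) stood against 12.1 to 28.9 CPM (median 19), nearly the same range. The log2 fold changes were -0.21 ± 0.22 in liver and -1.44 ± 0.41 in kidney, and the cerebellar level was 4.01-fold lower (SE of the log2 value 0.46). The cerebellar zero is animal 11, where 3 counts are 3.18 CPM.

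Slc4a1, the band 3 gene, did not follow the other 7. It was highest in kidney, where the p150-negative mean was 71.2 ± 37.7 CPM (SD, n = 5) and the p150-positive mean 82 ± 30.2 CPM (n = 7), against group means of 8.9 to 14.3 CPM in the other organs. The p150-negative kidneys of animals 1, 3, 8, 9 and 16 had 73.2, 26, 68.3, 130 and 58.6 CPM, inside or near the p150-positive range of 40.7 to 119 CPM. In cerebellum 2 p150-negative libraries (animals 2 and 11) had no count, where 3 counts are 0.549 and 3.18 CPM, and animal 8 had 43.7 CPM. The log2 fold changes were 0.51 ± 0.51 in liver, -0.24 ± 0.36 in kidney and 0.28 ± 0.75 in cerebellum, none larger than its SE. The liver value was 1.24 ± 0.43 without p150-positive animal 7 (36.7 CPM, the highest liver) and 1.22 ± 0.50 with limma voom. The cerebellar value turned to -0.54 without animal 8, to -0.01 with the identifier letters as a block and to -1.13 with limma voom.

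**Figure D2:**
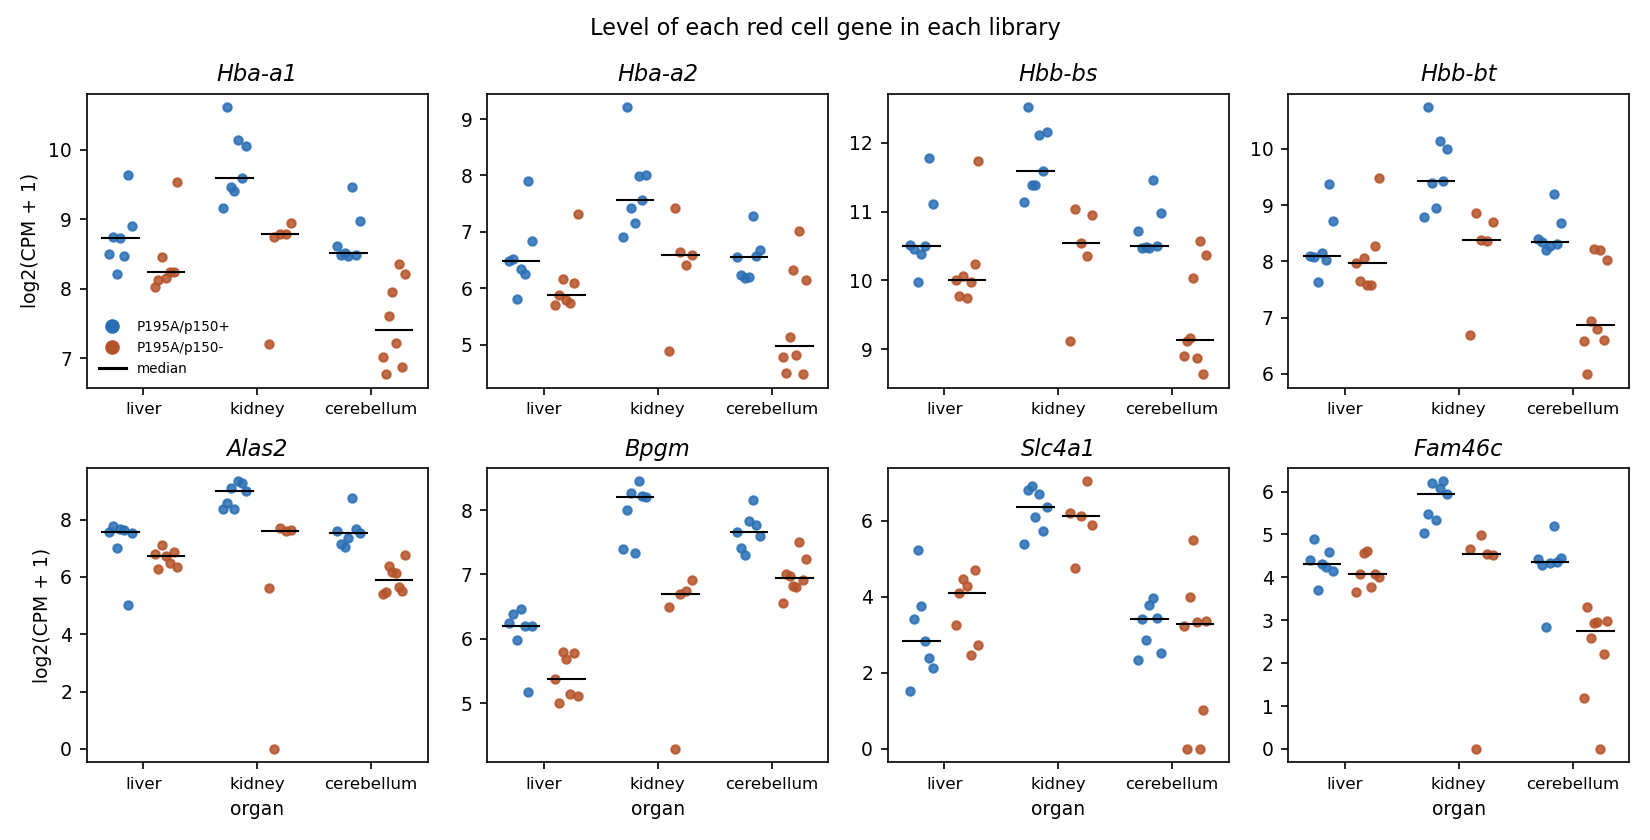
log2(CPM + 1) of each of the 8 genes in each library by organ and genotype; points are animals and black lines group medians. In kidney and cerebellum the p150-negative points of 7 genes sit low, Slc4a1 overlaps in every organ, and the points at 0 are the shallow kidney library of animal 3 and the cerebella of animals 2 and 11.

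All 8 genes passed the filter on low counts in every organ. In liver 1 of the 8 (Bpgm) was called lower in p150-negative mice at an adjusted p under 0.05 in edgeR, against 4.76% of the 9843 genes tested there. In kidney 3 of 8 (Hba-a1, Hbb-bs, Bpgm) were called lower, against 0.301% of 11957 genes, and in cerebellum 5 of 8 (Hba-a1, Hbb-bs, Alas2, Bpgm, Fam46c), against 0.274% of 13146 genes. None was called higher. Since the genes were chosen with these contrasts known, nothing is read from these shares. The 8 had a median log2 fold change of -0.29 (liver), -1.50 (kidney) and -1.19 (cerebellum), beside -0.04, -0.07 and 0.00 over all genes tested.

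The kidney calls were unstable: with 1 library left out, 0 to 4 of the 8 genes were called, and 0 in 7 of 12 such fits (without animal 1, 8, 9, 10, 13, 15 or 16). They numbered 0 with the animal identifier's letters as a block, 0 with all labelled libraries and 7 with DESeq2. In cerebellum 3 to 7 were called with 1 library left out, and Hba-a1, Alas2 and Bpgm in each of the 15 fits. In liver Bpgm was not called without animal 3, 4, 6, 10 or 11, and without animal 13 Alas2 was called beside it. The fold changes themselves kept their sign in every setting run, apart from liver Hbb-bt and cerebellar Slc4a1.

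**Figure D3:**
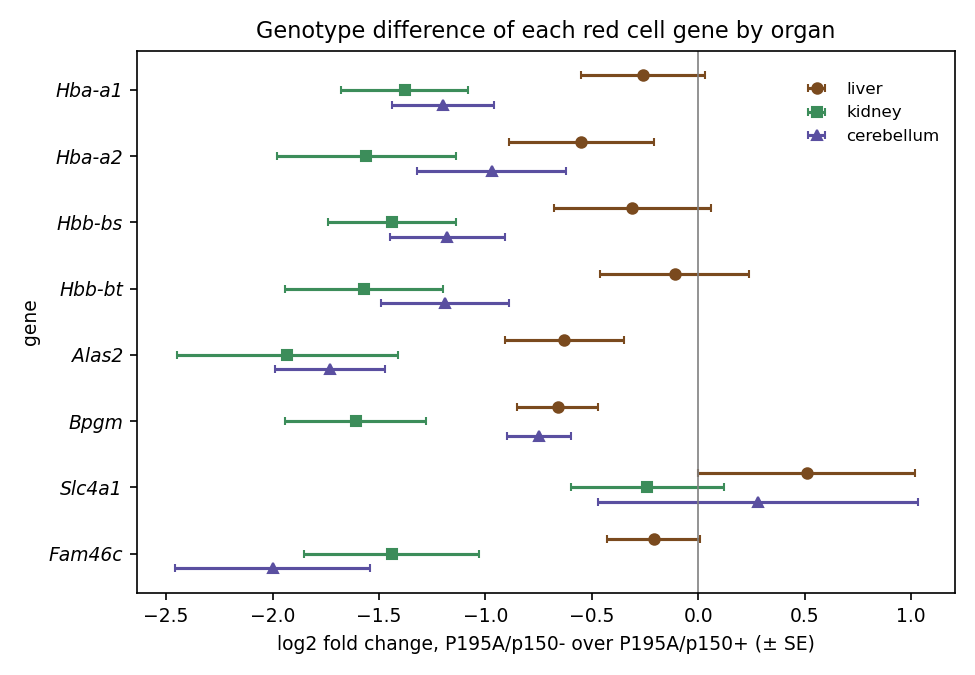
log2 fold change (p150-negative over p150-positive, ± SE) of the 8 genes in liver (circles), kidney (squares) and cerebellum (triangles). Kidney and cerebellum lie near or beyond -1 for 7 genes, apart from cerebellar Bpgm at -0.75, the liver values lie between -0.66 and 0.51, and Slc4a1 lies around 0.

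The genotype difference was larger in kidney and cerebellum than in liver for most of the 8 genes, and this contrast was read as a description too. The liver log2 fold change exceeded the kidney one by 1.11 ± 0.44 for Hba-a1, 1.46 ± 0.54 for Hbb-bt, 1.30 ± 0.60 for Alas2, 1.21 ± 0.45 for Fam46c and 0.94 ± 0.38 for Bpgm. It exceeded the cerebellar one by 0.93 ± 0.39 for Hba-a1, 1.10 ± 0.41 for Alas2 and 1.76 ± 0.50 for Fam46c. For Hbb-bs it did so by 0.88 ± 0.49 and for Hbb-bt by 1.08 ± 0.48. For Hba-a2 (0.44 ± 0.51), Bpgm (0.10 ± 0.24) and Slc4a1 (0.19 ± 0.97) liver and cerebellum differed by less than the SE. Between kidney and cerebellum the 8 genes differed by -0.83 ± 0.37 (Bpgm) to 0.57 ± 0.62 (Fam46c). Of the 8, none was called between liver and kidney (1.51% of 12970 genes were), 1 between liver and cerebellum (Fam46c; 2.67% of 14063) and none between kidney and cerebellum (0.114% of 14940). With the animal as a replicate block, Fam46c was at 1.98 ± 0.60 and was no longer called.

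The animal names start with P, AC, AA or AS, and the labels do not say what these letters mark. Within every set of letters that had both genotypes, the globin sum of p150-negative animals was lower in kidney and cerebellum. In kidney the ratio of means, p150-negative to p150-positive, was 0.347 within P (2 against 3 animals), 0.414 within AC (2 against 2) and 0.432 within AS (1 against 1). In cerebellum it was 0.351 within P, 0.49 within AC, 0.285 within AA and 0.644 within AS. In liver it was 0.687, 0.807 and 0.362 within P, AC and AA, and 1.56 within AS, whose p150-negative member is animal 16. Alas2 and Bpgm were lower within every such set too, apart from the liver within AA (ratios 3.74 and 1.54), whose p150-positive member is animal 13. Fam46c was lower in each, apart from the liver within AC (1.21).

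The alpha and beta sums followed each other across animals of a group. Pearson's r between them, on log2 CPM with 2 counts added, was 0.96 in both liver groups, 0.99 in p150-positive kidneys, 0.96 in p150-negative cerebella and 1.00 in p150-positive cerebella (n = 7, 7, 7, 8 and 7). After adjustment over the 25 relations of this family, 4 of the 5 passed in an exact two-sided permutation test (adjusted p 0.026, 0.00589, 0.00589 and 0.00661, and 0.115 in p150-negative livers). Spearman's rho was 0.71, 0.71, 0.96, 0.86 and 0.89 in the same order of groups, with adjusted exact permutation p of 0.275, 0.275, 0.0694, 0.0769 and 0.0769. Without the 2 animals farthest from the median alpha level, r was 0.38, 0.72, 1.00, 0.90 and 0.93, so the p150-negative liver relation rests on such animals. Beta counts were 3.66 to 4.01 times the alpha counts by group mean, with 3.05 to 4.75 over single libraries.

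Of the 20 relations of the 4 other genes to the globin sum none passed after adjustment (exact permutation test). Alas2 in p150-positive cerebella had r = 0.89 and rho = 0.75 (n = 7, adjusted exact permutation p 0.115 and 0.275). Fam46c in the same cerebella had r = 0.66 and rho = 0.89 (n = 7, adjusted exact permutation p 0.27 and 0.0769). Bpgm in p150-negative cerebella had r = 0.70 and rho = 0.57 (n = 8, adjusted exact permutation p 0.166 and 0.378). Without the 2 farthest animals r was 0.60, 0.38 and -0.01. In p150-positive livers r was -0.74 for Alas2 and -0.73 for Bpgm (adjusted exact permutation p 0.27 for each), and turned to 0.97 and 0.79 without 2 animals, 1 of them animal 13. Alas2 per 1000 globin counts was 6.02 in the liver of animal 13 and 16.1 in that of animal 16, beside group medians of 87.9 and 62.2.

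**Figure D4:**
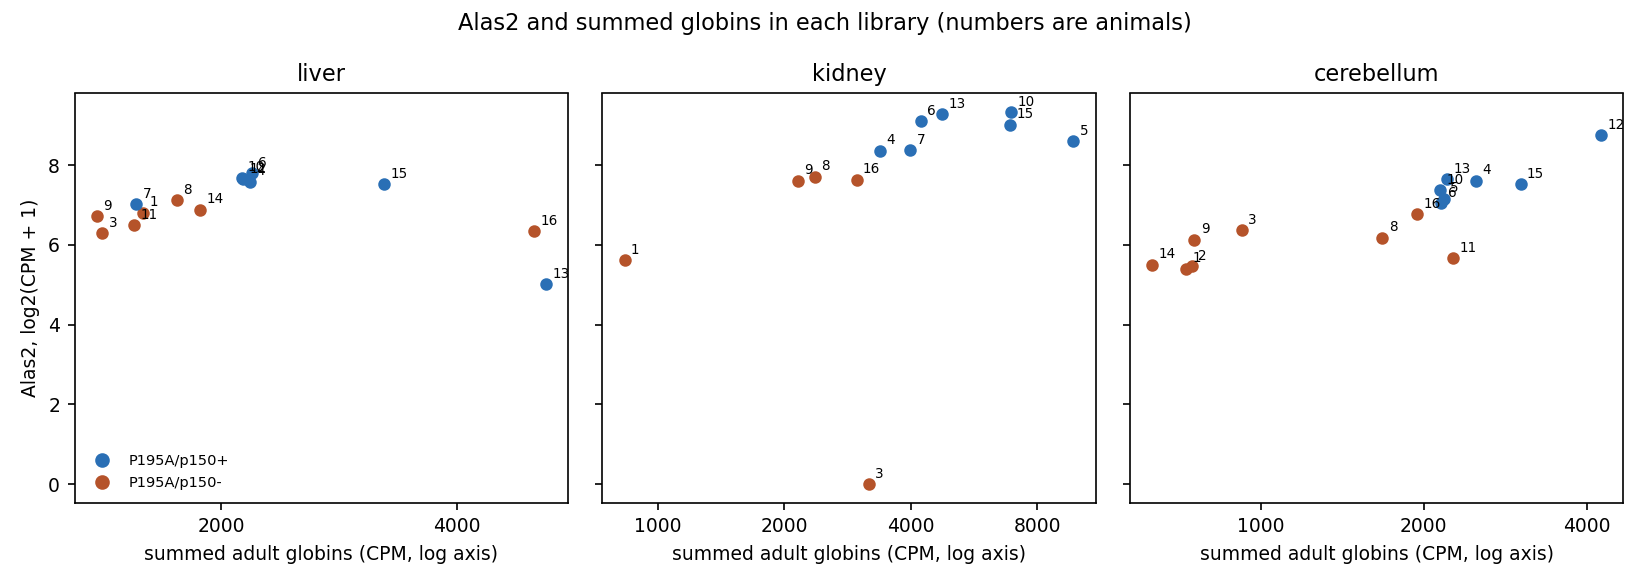
Alas2 (log2(CPM + 1)) against the summed globins (CPM, log axis) in each library of the 3 organs, coloured by genotype and numbered by animal. Livers 13 and 16 lie far right at low Alas2 (31.3 and 80.8 CPM), kidney 3 lies at 0, and in kidney and cerebellum the other p150-negative points lie below the p150-positive ones.

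No relation between the globin levels of 2 organs of the same animal passed a test. Over 4 relations within a genotype, Pearson's r was 0.28 for liver and kidney (p150-positive, n = 6), 0.44 and -0.20 for liver and cerebellum (p150-negative, n = 7, and p150-positive, n = 6) and -0.02 for kidney and cerebellum (p150-positive, n = 6). Spearman's rho was 0.26, 0.04, 0.14 and -0.31. The adjusted exact permutation p was 0.969 for each r and 0.963 for each rho, and r without the 2 farthest animals was 0.17, 0.52, -0.38 and 0.53. With 6 or 7 animals, relations of moderate strength are not detectable. The kidney held more globin RNA than the cerebellum in 5 of 5 p150-negative and 6 of 6 p150-positive animals, with ratios of 1.14 to 3.44 and 1.35 to 4.48. It held more than the liver in 3 of 5 p150-negative animals (ratios 0.525 to 2.25) and in 5 of 6 p150-positive ones (0.912 to 3.26). It held less in animals 1 (0.525), 16 (0.592) and 13 (0.912), and the livers of 16 and 13 had a high short-gene share. The ratios 2.25 and 3.44 are those of animal 3 and 4.48 that of animal 5, whose kidney libraries also had a high short-gene share. Liver exceeded cerebellum in 6 of 7 p150-negative animals (median ratio 1.84) and in 3 of 6 p150-positive ones (median ratio 1).

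Genes outside the 8 whose level was most like the globin sum, by Pearson's r of deviations from the genotype mean, differed between organs. In liver (14 libraries, 9843 genes) they were Mrpl32 (r = 0.95), Mbl1 (0.94), Ppp1r12a (0.94), Phf5a, Scp2-ps2, Fnip1, Apoa2 (0.93 each) and Prdx1 (0.92). In kidney (12 libraries) they were Dynll1 (0.91), Usp42, Mrpl23-ps1, Ndufaf2 and Myl6 (0.89 each), Selenom (0.87), Pantr1 and Gstp1 (0.85 each). In cerebellum (15 libraries) they were Gm23935 (0.94), Cavin3 (0.90), Myo10 (0.89), mt-Rnr1 (0.88), Rpl41, S100a10 and mt-Ta (0.87 each) and Gm14303 (0.86). None of these 24 stood in 2 organs and none is in the lists of red cell genes below. The globins stood at 0.94 to 1.00 in these rankings, while Alas2 stood at -0.45 in liver, -0.05 in kidney and 0.58 in cerebellum. The median exon length of the 8 genes was 2604, 3082 and 1061 bases in liver, kidney and cerebellum, against 4363, 4414 and 4522 bases over all genes tested. These libraries share their depth and composition, so the likeness is a description.

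The rest of the erythroid program was uneven in these organs, with all 11 heme synthesis genes past the filter on low counts in each. Over 6 lists (heme synthesis; other globins; membrane; enzymes and maturation; transcription factors; erythropoietin and transferrin receptor signalling), 37 genes were tested in liver and 38 in kidney, and 2 and 0 were called lower and 1 and 0 higher in edgeR. The lists were chosen with earlier results known. Embryonic and theta globins passed the filter in no organ, their list summing to at most 8.47 CPM in any library. Of the 8 erythroblast markers, which mark nucleated red cell precursors, 3 were tested in liver, 3 in kidney and 2 in cerebellum, and none was called. Their summed level ran from 16.9 to 55.4 CPM in p150-negative and 12.7 to 74.3 CPM in p150-positive livers, from 21.7 to 54.4 and 23.5 to 254 CPM in kidneys, and from 0 to 41.4 and 15.6 to 33.1 CPM in cerebella. None of the 8 was at 0 in all libraries of an organ.

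Heme synthesis, which supplies the iron-holding ring of hemoglobin, had 11 genes tested and none called in each organ (edgeR), with a median log2 fold change of -0.38 in liver, -0.48 in kidney and -0.10 in cerebellum. Slc25a37, mitoferrin 1, which carries iron into mitochondria, stood at 14.2 ± 9.99 against 39.2 ± 13.6 CPM in kidney (log2 fold change -1.42 ± 0.46, edgeR adjusted p 0.267) and 6.87 ± 2.81 against 15.6 ± 6.77 CPM in cerebellum (-1.18 ± 0.34, adjusted p 0.136). Urod, uroporphyrinogen decarboxylase, stood at 115 ± 13.8 against 162 ± 16.7 CPM in liver (-0.44 ± 0.15, adjusted p 0.0623). Urod passed the threshold without liver animals 13 and 16 (adjusted p 0.0169).

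Among the genes of red cell enzymes and maturation, Car2, carbonic anhydrase 2, which red cells and oligodendrocytes express, stood at 425 ± 111 against 614 ± 44.7 CPM in cerebellum (log2 fold change -0.57 ± 0.14, edgeR adjusted p 0.053). Pklr, the liver and red cell pyruvate kinase, fell in liver from 67 ± 35.7 to 11.2 ± 7.19 CPM (-2.52 ± 0.44, adjusted p 0.000516), where hepatocytes express it.

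Of the membrane list, 4 genes were tested in liver, 5 in kidney and 8 in cerebellum, and only Aqp1, the water channel of red cells and endothelium, was called. It fell in liver from 56.3 ± 19.8 to 21.5 ± 5.65 CPM (-1.32 ± 0.23, edgeR adjusted p 0.000567), and Tek, an endothelial receptor, fell there too, as the only one of 6 endothelial markers (-1.07 ± 0.29, adjusted p 0.0163). With all labelled libraries Aqp1 turned to 0.09 (edgeR adjusted p 0.955) and Tek lost its call (adjusted p 0.902). Of the transcription factors, Ldb1, a bridging factor of GATA1 complexes, rose in liver (0.73 ± 0.23, adjusted p 0.0411), a call lost in 12 of 24 alternatives.

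The list of hemoglobin and heme clearance genes joins genes that bind, carry or break down hemoglobin and heme with genes of macrophages and of iron export. Of 11 tested, 8 rose in p150-negative livers, against 6.94% of all genes called higher there, with a list median of 1.31 beside -0.04 over all genes. The list was chosen with earlier results of these data known, so nothing is read from this share. Lrp1 (0.28 ± 0.21), Blvra (0.25 ± 0.21) and Blvrb (-0.22 ± 0.21) were not called in liver (edgeR adjusted p 0.489, 0.552 and 0.611). Hp, haptoglobin, which binds free hemoglobin, rose from 4739 ± 887 to 17225 ± 5706 CPM (log2 fold change 1.95 ± 0.26, edgeR adjusted p 3.22e-05). Hpx, hemopexin, which binds free heme, rose from 8690 ± 2347 to 25907 ± 5607 CPM (1.66 ± 0.25, adjusted p 0.000104). Both are also acute phase proteins of the liver, and both calls were lost only with all labelled libraries (adjusted p 0.232 and 0.437).

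Hmox1, heme oxygenase 1, which opens the heme ring, rose from 30.1 ± 19.6 to 206 ± 71.3 CPM (2.83 ± 0.38, edgeR adjusted p 3.51e-05), and was higher in 7 of 7 p150-negative livers than the p150-positive median. Spic, the transcription factor of iron-recycling macrophages, rose from 5.28 ± 2.87 to 36.9 ± 15.7 CPM (2.83 ± 0.35, adjusted p 1.38e-05). At its low p150-positive level, Spic could have passed the filter on low counts through p150-negative livers alone. Vcam1, which iron-recycling macrophages and activated endothelium express, rose from 37.9 ± 11 to 151 ± 45 CPM (2.02 ± 0.20, adjusted p 1.45e-06). Timd4, a Kupffer cell receptor for dying cells, rose by 1.31 ± 0.29 on the log2 scale (adjusted p 0.00485). The exporter of iron Slc40a1 (0.51 ± 0.16, adjusted p 0.0407) and the heme transporter Slc48a1 (0.62 ± 0.18, adjusted p 0.0274) rose least, and their calls were lost in 14 and 5 of 24 alternatives.

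In kidney and cerebellum none of the 9 clearance genes tested was called (edgeR; 0.385% and 0.723% of all genes were called higher there). The Hmox1 difference in liver exceeded that in kidney by 3.12 ± 0.68 (edgeR interaction, adjusted p 0.00911) and that in cerebellum by 2.37 ± 0.49 (adjusted p 0.0043). The Vcam1 difference exceeded the cerebellar one by 1.62 ± 0.32 (adjusted p 0.00253). These calls held with the animal as a replicate block (adjusted p 0.00817, 0.0153 and 0.014); with all labelled libraries Hmox1 between liver and kidney (0.0641) and Vcam1 (0.0586) missed the threshold.

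**Figure D5:**
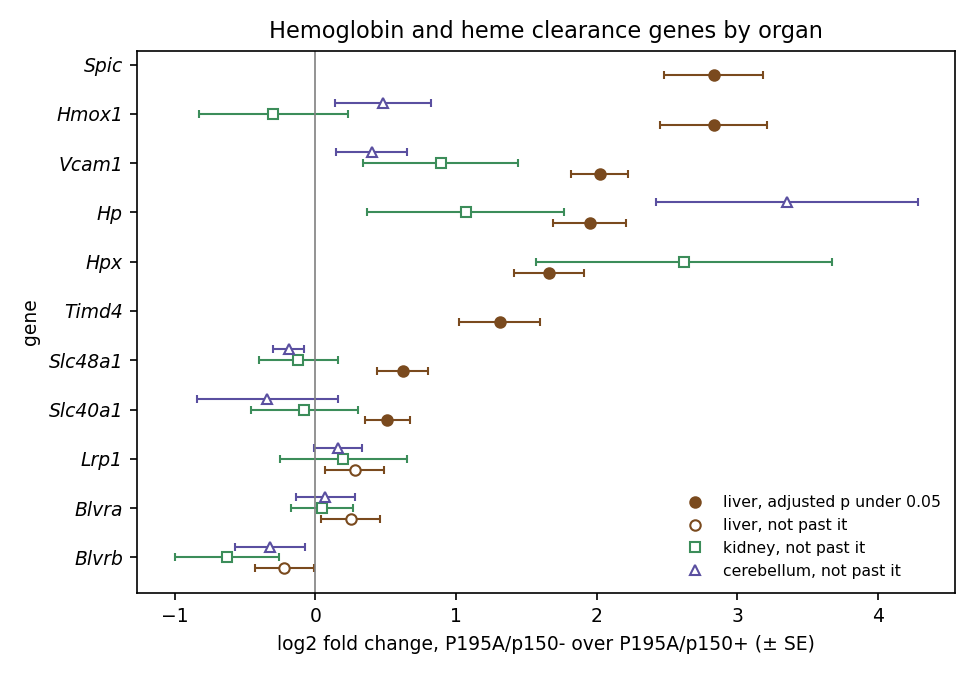
log2 fold change (p150-negative over p150-positive, ± SE) of hemoglobin and heme clearance genes in liver (circles), kidney (squares) and cerebellum (triangles); filled symbols passed an adjusted p of 0.05 in edgeR. The 8 filled symbols are all liver genes above 0, from 0.51 (Slc40a1) to 2.83 (Hmox1, Spic).

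Markers of other blood and immune cells moved in the same livers. All 8 neutrophil markers tested rose, such as S100a8 from 25.4 ± 16.7 to 346 ± 221 CPM (log2 fold change 3.89 ± 0.51, edgeR adjusted p 2.7e-05), and the summed list ran from 440 to 1674 CPM in p150-negative and 27.9 to 176 CPM in p150-positive livers. Of 6 macrophage markers 5 rose, Marco most, from 39.8 ± 13.9 to 478 ± 171 CPM (3.61 ± 0.27, adjusted p 7.04e-08), with list sums of 897 to 2379 against 321 to 692 CPM. Of these 5, the call of Vsig4 was lost in 8 of 24 alternatives, that of Csf1r in 2, and those of Cd5l and Adgre1 in 1 each, with all labelled libraries; that of Marco was lost in none. The platelet genes Pf4 (2.20 ± 0.39, adjusted p 0.0006) and Ppbp (2.74 ± 0.48, adjusted p 0.0005) rose out of 3 tested, with list sums of 27.7 to 139 against 9.83 to 28.9 CPM. Mmp8, Retnlg, Mmp9 and Ppbp had low means in p150-positive livers (2.16, 2.77, 1.73 and 3.58 CPM, against 45, 51.2, 8.84 and 24 CPM). Such genes could pass the filter on low counts through p150-negative livers alone, so nothing is read from the number of liver markers that rose. In kidney, neutrophil sums ran from 126 to 246 against 9.86 to 85.5 CPM, with S100a8 the only one of 4 called (3.49 ± 0.64, edgeR adjusted p 0.0139, lost in 5 of 21 alternatives). In cerebellum they ran from 39.9 to 377 against 26 to 100 CPM, with none of 6 called. No neutrophil or platelet marker was called lower in any organ, and their part in the clearance and red cell values was not tested.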

How the data were processed

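The values are raw counts of reads per gene, deposited by the authors as 1 table with a column per library. Per the labels' protocols, organs were frozen in TRIzol, RNA was extracted with DNase digestion and libraries were made with Nextera XT. The submitters' processing notes name STAR 2.4.2a, HTSeq 0.4.1, Picard 1.134, SAMtools 1.2, FastQC 0.11.3 and the GRCm38 (mm10) genome. Strandedness, the release of the gene models and how reads with several matches were treated are not given in the sources used here. Entries without a symbol held 0.267% of counts.

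CPM are counts per 1000000 of the library total. The authors' counts were tested per organ with edgeR 4.0.16 (quasi-likelihood, TMM, filterByExpr at its minimum count of 10 and total of 15; R 4.3.3), p150-negative over p150-positive, with Benjamini-Hochberg adjustment over all genes and a threshold of 0.05. Standard errors come from the F statistic. The fits were also run on simulated counts, and that outcome is not reported here. Genotype effects were compared between organs by an interaction term. Same-numbered libraries come from 1 animal, so a fit with the animal as a replicate block was an alternative; deviations of an animal from its group correlated across genes from -0.01 to 0.25 between liver and kidney, -0.01 to 0.25 between liver and cerebellum and -0.19 to 0.21 between kidney and cerebellum. Other alternatives were DESeq2 1.42.0, limma 3.58.1 voom, other filters and scalings, the identifier letters as a block, all labelled libraries, deeper libraries and each library left out. Of 122 pairs of libraries of one group, 0 had identical counts, and the lowest chi-square per degree of freedom was 5.23.

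The members and the lists (135 genes beside the members, 133 in the table) were chosen with earlier results of these data known. Genes named are the 8 members, up to 4 genes of smallest adjusted p per list, every called gene of lists with at most 5, the 8 genes most like the globin sum per organ, and Adar. Animals were taken as replicates, as labelled. Promoters are RefSeq's and exon lengths GENCODE M21's, which holds 99.6% of the identifiers. Results of some genes of the lists are not reported here.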

Additional observations from a re-analysis of the deposited data

Results flagged for a closer look

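Within 54 sets of 1 gene (or the globin sum), organ and genotype, 17 had a library far from the others by Dixon's test at 95%, where chance flags about 1 in 20 sets. The sets share libraries and are not independent. In p150-negative livers, animal 16 was highest for Hba-a1 (742 CPM), Hba-a2 (158 CPM), Hbb-bs (3413 CPM), Hbb-bt (710 CPM) and the globin sum (5023 CPM). In p150-positive livers, animal 13 was highest for Hba-a1 (795 CPM) and Hba-a2 (239 CPM), and animal 7 for Slc4a1 (36.7 CPM).

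In p150-positive cerebella, animal 12 was highest for Hba-a2 (155 CPM), Hbb-bs (2810 CPM), Hbb-bt (583 CPM), Alas2 (432 CPM) and the globin sum (4251 CPM). In p150-negative cerebella, animal 8 was highest for Slc4a1 (43.7 CPM). In kidney, animal 1 (p150-negative) was lowest for Hba-a1 (147 CPM), animal 3 (p150-negative) lowest for Fam46c (0 CPM) and animal 5 (p150-positive) highest for Hba-a2 (594 CPM). The short-gene share of the cerebellum of animal 12 was 2.24%, near the group median of 2.27%, unlike that of livers 13 and 16 (7.93% and 7.65%).

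The genotype effect differed between organs in the edgeR interaction for Fam46c between liver and cerebellum (log2 difference 1.76 ± 0.50, given as a description). Between liver and kidney it differed for Aqp1 (-1.16 ± 0.31, adjusted p 0.0435), Pklr (-3.41 ± 0.82, adjusted p 0.0218) and Hmox1 (3.12 ± 0.68, adjusted p 0.00911). Between liver and cerebellum it differed for Hmox1 (2.37 ± 0.49, adjusted p 0.0043), Slc48a1 (0.81 ± 0.21, adjusted p 0.0338) and Vcam1 (1.62 ± 0.32, adjusted p 0.00253). The membrane skeleton gene Tmod1 (4.46 ± 1.00, adjusted p 0.0135) and the platelet gene Gp1bb (2.93 ± 0.69, adjusted p 0.0138) came past the threshold too, but did not pass the filter on low counts in liver and were tested only through cerebellum. Tmod1 had 0 to 3 counts in p150-negative and 0 in every p150-positive liver, and Gp1bb 3 to 30 and 0 to 4 counts, so nothing is drawn from their liver side. With the animal as a replicate block the edgeR adjusted p was 0.183 for Pklr, 0.16 for Tmod1, 0.189 for Slc48a1 and 0.0838 for Gp1bb, past the threshold for none of these 4.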

How the results depend on the processing

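The number of genes called in kidney (82 in edgeR) moved most: 306 with DESeq2, 141 with no filter, 32 with the identifier block, 1 with all labelled libraries, 211 without libraries under 1 M counts (M, 1000000), and 34 to 211 with 1 library left out (211 without animal 3). In cerebellum (131) DESeq2 called 287 and limma voom 62, and in liver (1152) all labelled libraries gave 742. With the animal as a replicate block, 119 in place of 196 genes had a different genotype effect in liver and kidney (71 with all labelled libraries), 196 in liver and cerebellum (2.67% of genes without the block) and 9 in place of 17 in kidney and cerebellum. The block changed the call of Fam46c and of the 4 genes named above with it, and of no other member. The globin difference in kidney was -2.04 with all labelled libraries, which brings in 3 libraries with RNA of another organ, and -1.02 to -1.50 with 1 library left out. It ran from -0.22 to -0.64 in liver and -1.13 to -1.41 in cerebellum with 1 library left out. Liver Aqp1 turned to 0.09 with all labelled libraries, and kidney Adar ran from -0.50 to 0.05 with 1 library left out. With TMM library sizes, 5 in place of 4 correlations of the 25 passed, and 0 of 4 between organs. The cause of these shifts was not tested, apart from the other-organ libraries. Depth limits single libraries: 3 counts are 11.1 CPM in kidney animal 3, so Fam46c and Alas2 at 0 there allow up to that level, for counting error only.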
